A study of Mus musculus with 4 samples.

Results

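The mesothelial lineage genes described here are 7 genes: Msln, Upk3b, Gpm6a, Wt1, Bnc1, Lrrn4 and Prg4. They were taken by name, as every probe set of the array that the platform annotation gives to exactly 1 symbol among these 7, which found 9 of 34945 such probe sets and all 7 of 18193 genes. The genes were chosen by their signals and log2 differences on these 4 arrays, which were in view when the names were proposed, so their levels and differences are given as a description, with no test. RNA came from 4 cultures of p53-/- mouse fetal liver progenitor cells, with 1 Affymetrix array each. The groups are non-transformed cells and cells transformed with H-RasV12, with myr-Akt or with c-Myc. H-RasV12 is a constitutively active small GTPase and c-Myc a transcription factor. Myr-Akt is AKT anchored to the membrane by a myristoyl group. All 4 cultures lack p53, and per the labels' protocols all grew with serum, dexamethasone, EGF and HGF. The labels give no vector, clone, mouse strain, embryonic age or number of animals.

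Mesothelium is the single cell layer that lines the body cavities and covers the organs, the liver included. In the fetal liver the mesothelial cells sit on the surface next to the hepatoblasts, and they can give rise to stellate cells and fibroblasts. They are unusual in carrying keratins and a microvillous, glycoprotein-rich surface together with mesodermal transcription factors such as WT1. Of the genes described, Wt1 and Bnc1 encode zinc finger DNA-binding proteins, Msln, Upk3b, Gpm6a and Lrrn4 encode membrane proteins, and Prg4 encodes the secreted lubricant lubricin.

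Values are probe-set signals on a linear scale from which the authors' processing had already removed overall differences in brightness between arrays. A signal under 100.001 (20% of the trimmed mean signal) was treated as a floor, below which values have no order, and where 1 side of a comparison lies there only a lower limit of the fold is known, given as "at least". Genes 2-fold or more apart were counted. With 1 array a group there is no spread between replicates, no error and no p-value for any value given, so the precision is limited by how few arrays there are. In RNA of a whole culture, fewer cells of a type and less RNA per cell cannot be told apart. Of all genes, between 9492 and 10216 were above the floor on an array, and 10679 passed it on 1 array or more. The latter are the genes tested in every count over all genes. The 5′ to 3′ ratio of the beta-actin control probes lay between 0.846 and 0.907. The Myc signal was 2285 in non-transformed cells, 1747 with H-RasV12, 639.7 with myr-Akt and 420.6 on the array labelled c-Myc. No label says if that probe set detects the introduced gene, so each statement on the array labelled c-Myc rests on its label. The Akt1 signal was 1870 in non-transformed cells, 2760 with H-RasV12, 2834 with myr-Akt and 2991 on the array labelled c-Myc. It was thus not highest with myr-Akt. Whether the Akt1 probe set detects the introduced gene was not tested, and statements on the myr-Akt array rest on its label too.

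Against non-transformed cells, 6 of the 7 genes were at least 2-fold lower on the H-RasV12 array, while Msln alone of the 7 was at least 2-fold lower with myr-Akt and with c-Myc. Upk3b, Gpm6a, Bnc1 and Lrrn4 were between 11.7 times and at least 21.2 times lower with H-RasV12, and within 2-fold of non-transformed cells on the other 2 transformed arrays. Msln went the other way in size, 2.53 times lower with H-RasV12 against 32.9 times lower with myr-Akt and 22.5 times lower with c-Myc. Of the 7, only Prg4 was at least 2-fold higher on an array, by 6.12 times with c-Myc.

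Because Upk3b, Gpm6a, Bnc1 and Lrrn4 were low together on the H-RasV12 array, the stretch before the annotated start of each gene is shown first. The sequences are RefSeq's, mouse build GRCm38.p6, and give the 250 bases before the start, 5′ to 3′ on the gene's strand. Such sequences were at hand for 4 of the 7 genes, with 5 starts in all, since Gpm6a has 2. Capitals mark matches, on either strand, to the 5 motifs searched, namely GGAATG (bound by TEAD factors), TGANTCA (AP-1), CACGTG (the E-box of MYC), GTAAACA (FOXO) and GTGGGNG (the core of the WT1 motif). No match overlaps another. The start shown for Lrrn4 lies inside the outer bounds RefSeq gives that gene.
Upk3b, chr5:136038246-136038495, plus strand: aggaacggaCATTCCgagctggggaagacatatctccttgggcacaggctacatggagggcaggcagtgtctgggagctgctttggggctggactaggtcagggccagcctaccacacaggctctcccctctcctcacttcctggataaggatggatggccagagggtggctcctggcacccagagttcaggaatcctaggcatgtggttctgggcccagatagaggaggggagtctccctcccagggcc
Gpm6a, chr8:54779184-54779433, plus strand: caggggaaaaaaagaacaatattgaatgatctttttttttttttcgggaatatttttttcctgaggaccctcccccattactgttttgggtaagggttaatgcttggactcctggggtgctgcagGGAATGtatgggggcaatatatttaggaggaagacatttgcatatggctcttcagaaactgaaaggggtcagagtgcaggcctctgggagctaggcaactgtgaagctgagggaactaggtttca
Lrrn4, chr2:132880863-132881112, minus strand: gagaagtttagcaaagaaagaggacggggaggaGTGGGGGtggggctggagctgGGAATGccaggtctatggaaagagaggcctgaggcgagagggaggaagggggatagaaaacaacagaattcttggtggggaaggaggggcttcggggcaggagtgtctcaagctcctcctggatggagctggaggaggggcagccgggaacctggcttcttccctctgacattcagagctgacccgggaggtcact
Bnc1, chr7:81992300-81992549, minus strand: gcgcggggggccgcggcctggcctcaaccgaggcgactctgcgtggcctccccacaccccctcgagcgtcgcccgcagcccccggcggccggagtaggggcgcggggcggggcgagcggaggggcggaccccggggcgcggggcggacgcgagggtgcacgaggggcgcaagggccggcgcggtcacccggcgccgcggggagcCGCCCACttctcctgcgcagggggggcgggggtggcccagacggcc

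GGAATG or its reverse complement was found before the starts of Upk3b, Lrrn4 and Gpm6a (the start shown), that is in 3 of 5 windows. It lies at bases -241 to -236 for Upk3b, -196 to -191 for Lrrn4 and -125 to -120 for Gpm6a, counted back from the start. Of 32851 promoter windows of the same length in the table, 12.6% hold that motif. GTGGGNG was found before Lrrn4 (-217 to -211) and Bnc1 (-46 to -40), and 28.1% of all windows hold it. The AP-1, E-box and FOXO motifs, held by 6.75%, 6.02% and 3.17% of all windows, were in 0 of the 5. The second start of Gpm6a, 250 bases not printed here, holds none of the motifs. The windows of Upk3b, Lrrn4 and Bnc1 are 60.8%, 59.2% and 83.6% G and C, and the 2 of Gpm6a 44.4% and 33.6%, beside a median of 52.4% over all windows. A match says that these letters are present, and binding was not measured.

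Both genes for DNA-binding proteins were lower with H-RasV12. Wt1, a regulator of mesothelial and kidney development, read 3419 on the non-transformed array, 1529 on the H-RasV12 array, 3772 on the myr-Akt array and 3438 on the array labelled c-Myc. The H-RasV12 array was thus low and the other 3 lay close together. Its signal was 2.24 times lower with H-RasV12 (log2 difference -1.16), 1.10 times higher with myr-Akt and 1.01 times higher with c-Myc. Wt1 was read from 1 probe set, whose identifier ends in _s_at, meaning that its probes can bind more than 1 transcript. Bnc1, which encodes basonuclin 1, a zinc finger protein of mesothelium, keratinocytes and germ cells, had signals of 5656, 462.1, 7161 and 9470 in the same order of arrays. It was 12.2 times lower with H-RasV12 (log2 difference -3.61), whereas it was 1.27 times higher with myr-Akt and 1.67 times higher with c-Myc. The difference of Bnc1 with H-RasV12 was therefore larger than that of Wt1, and 15 of the 10679 genes had a lower log2 difference in that comparison than Bnc1 against 517 for Wt1.

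Among the membrane proteins, Upk3b and Gpm6a were each read from 2 probe sets. Upk3b encodes a uroplakin, a family first known from the bladder lining. Its brighter probe set read 15167 on the non-transformed array, 1299 on the H-RasV12 array, 12839 on the myr-Akt array and 11557 on the array labelled c-Myc. Its other probe set read 8581, 723.3, 6379 and 5489. Both were low on the H-RasV12 array alone, with log2 differences from non-transformed cells of -3.55 and -3.57, and they differed by 0.19 and 0.25 in the other 2 comparisons.

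Gpm6a, a multi-pass membrane glycoprotein best known from neurons, gave 4314, 267.9, 6812 and 7852 by its brighter probe set and 2015, 137.4, 2928 and 4171 by the other. The order of the 4 arrays was the same for both probe sets, lowest with H-RasV12 and highest on the array labelled c-Myc. With H-RasV12 the log2 differences were -4.01 and -3.87. With myr-Akt they were 0.66 and 0.54, and with c-Myc 0.86 and 1.05, so the second probe set of Gpm6a alone passed 2-fold there. The brighter probe sets of Upk3b and Gpm6a have identifiers ending in _s_at.

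Lrrn4, a leucine-rich repeat membrane protein used as a marker of mesothelial cells, had signals of 2121 on the non-transformed array, 81.7 with H-RasV12, 1688 with myr-Akt and 1644 on the array labelled c-Myc. The H-RasV12 signal was under the floor, which makes the difference a bound of at least 21.2-fold lower (log2 -4.41). The bound depends on the floor: raising the floor to 40%, made it -3.41 on the log2 scale. With myr-Akt and c-Myc the log2 differences were -0.33 and -0.37. Under scaling to a common median both were -0.02.

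Msln encodes mesothelin, a cell surface glycoprotein that binds the mucin MUC16. Its signal was 7837 on the non-transformed array, 3096 on the H-RasV12 array, 238.3 on the myr-Akt array and 348 on the array labelled c-Myc. The H-RasV12 array was the highest of the 3 transformed arrays for Msln, and the lowest of all 4 for the other 6 genes. The log2 differences from non-transformed cells were -1.34, -5.04 and -4.49. For myr-Akt, 2 of 10679 genes had a lower log2 difference than Msln, and for c-Myc 7 had. Msln was read from 1 probe set.

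Prg4, the lubricant of joint and serosal surfaces, lay near the floor on 3 arrays. It read 182.6 on the non-transformed array, 27.7 with H-RasV12, 281.2 with myr-Akt and 1118 on the array labelled c-Myc, by 1 probe set. With H-RasV12 it was under the floor, so its difference was a bound of at least 1.83-fold lower (log2 -0.87), short of the 2-fold threshold. At a floor of 10% the bound was -1.87, and with a pseudocount of 100 in place of the floor the difference was -1.15, so that all 7 genes were then counted as lower. With a floor at 40% both arrays lay at the floor. With c-Myc it was 6.12 times higher (log2 difference 2.61), and 15 of 10679 genes had a higher one.

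**Figure D1:**
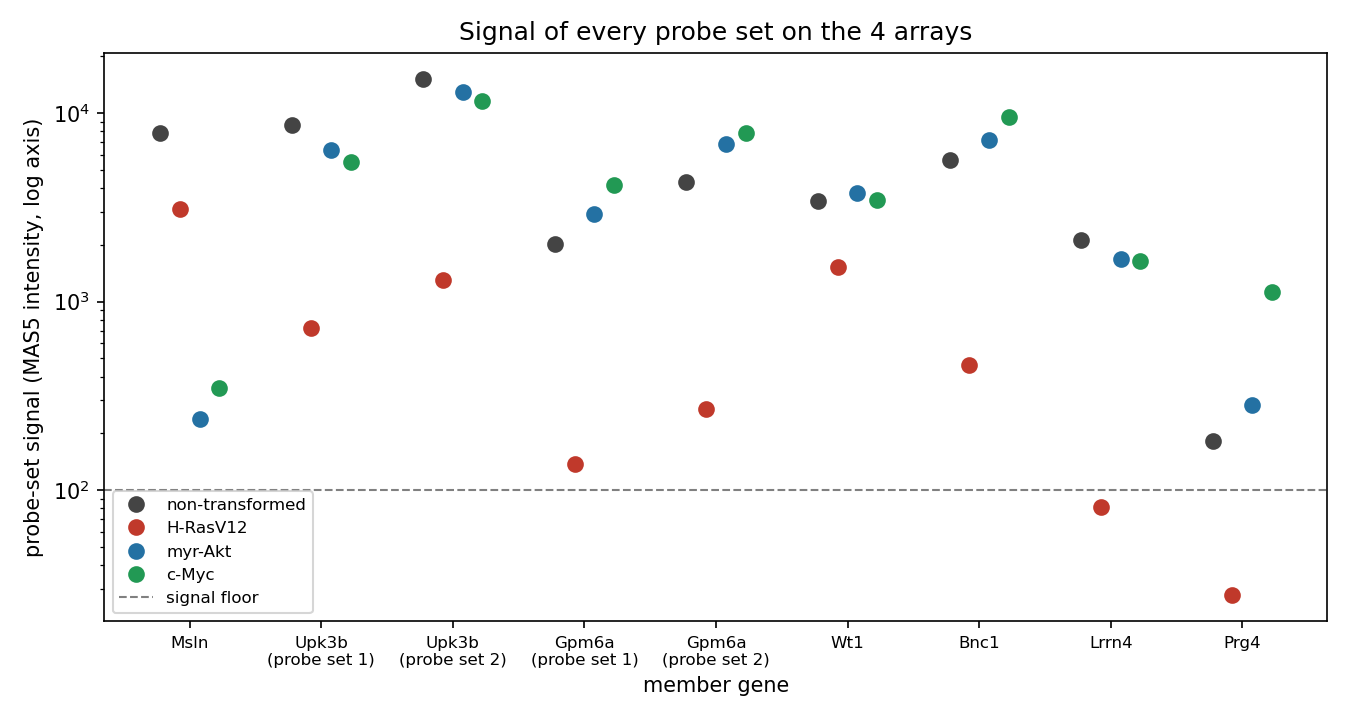
Signal of each of the 9 probe sets (MAS5 intensity, log axis) on the 4 arrays, 1 point an array, with the signal floor of 100.001 as a dashed line. The H-RasV12 point is the lowest for every gene except Msln, where the points of myr-Akt (238.3) and c-Myc (348) are lowest.

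Set against all genes, 6 of 7 members were at least 2-fold lower with H-RasV12 where 670 of the 10679 genes, 6.27%, were, and 0 of 7 were higher where 2.08% were. With myr-Akt 1 of 7 was lower beside 12.7% of all genes and 0 of 7 higher beside 4.9%. With c-Myc 1 of 7 was lower beside 11.3% and 1 of 7 higher beside 4.42%. The median log2 difference of the 7 was -3.55 with H-RasV12, 0.14 with myr-Akt and 0.01 with c-Myc, beside 0.00, -0.02 and 0 over all genes tested. Since the 7 were chosen with these contrasts in view, nothing is read from the shares. The 3 comparisons share the non-transformed array. The genes nearest the threshold in the comparison of H-RasV12 were Wt1 (-1.16) just inside and Prg4 (bound -0.87) just outside.

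Scaling the arrays to a common median in place of the trimmed mean put the median log2 difference of all genes at 0.25 with myr-Akt and 0.31 with c-Myc. Over all genes it turned 1353 lower and 523 higher with myr-Akt into 942 and 1281, and 1211 lower and 472 higher with c-Myc into 818 and 1382. Among the 7 genes, Gpm6a (1.21) and Bnc1 (1.09) then passed 2-fold higher with c-Myc, though neither did so relative to that median, and Upk3b with myr-Akt went from -0.24 to 0.07. Of the genes within 2-fold on those 2 arrays, Upk3b with myr-Akt thus changed sign. Wt1 with c-Myc did too, from 0.01 to -0.04 after quantile normalization, so these 2 signs are not settled. Lrrn4 on both arrays and Upk3b with c-Myc kept a negative sign under every alternative. Their sizes depended on the scaling, at -0.02 for Lrrn4 on both arrays and -0.04 for Upk3b under median scaling.

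**Figure D2:**
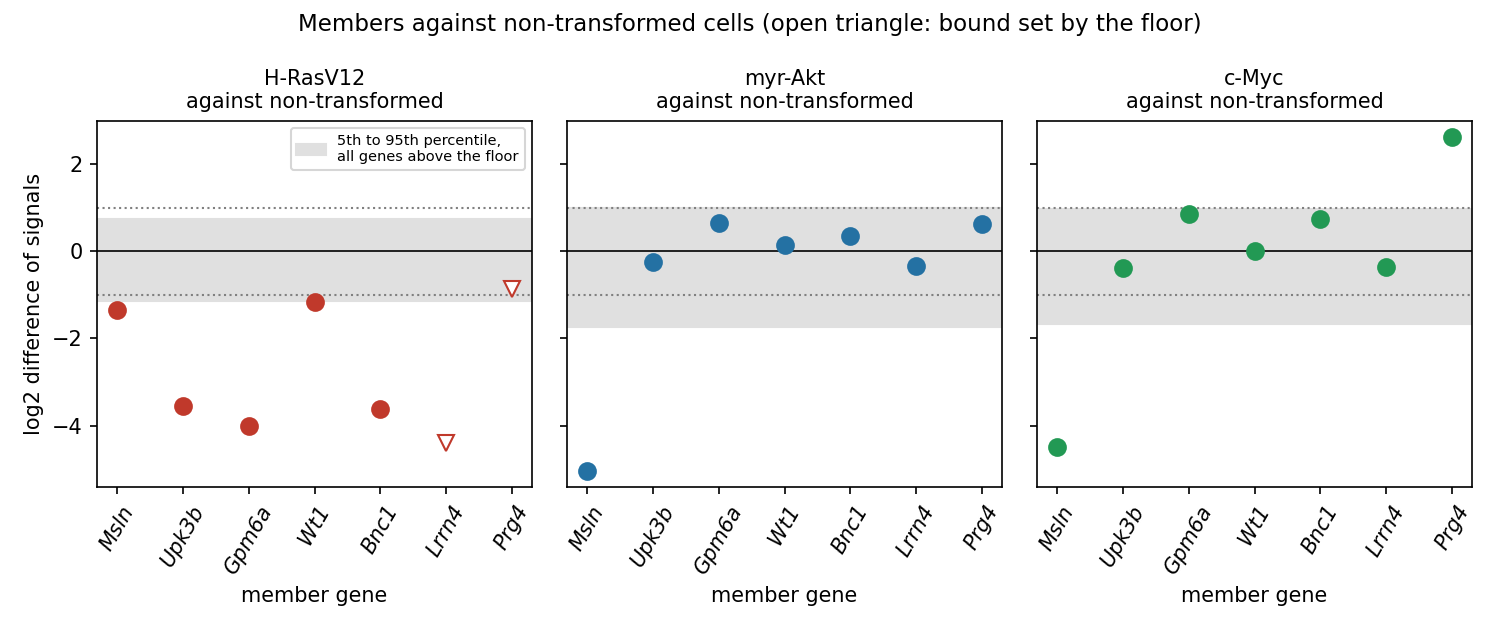
Log2 difference of signals between each transformed array and the non-transformed array for the 7 genes, 1 point a gene, with open triangles for bounds set by the floor, dotted lines at 2-fold and grey from the 5th to the 95th percentile of the 10679 genes tested. With H-RasV12 the grey runs from -1.14 to 0.73 and all but Prg4 lie below -1, while with myr-Akt and c-Myc Msln lies at -5.04 and -4.49 and Prg4 at 2.61 with c-Myc.

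The transformed cultures were also set against each other, which does not use the non-transformed array. Against myr-Akt, H-RasV12 had 6 of 7 genes at least 2-fold lower, beside 4.38% of all genes, and Msln 13.0 times higher, beside 9.35% of all genes higher. Gpm6a was 25.4 times lower, Lrrn4 at least 16.9 times, Bnc1 15.5 times, Upk3b 9.88 times, Prg4 at least 2.81 times and Wt1 2.47 times. Every gene but Msln thus lay on the same side, by sizes that ranged over about an order of magnitude. With the floor at 40% the count of lower genes was 5, as the bound for Prg4, under the floor on the H-RasV12 array only, then fell short of 2-fold.

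Against the array labelled c-Myc, H-RasV12 again had 6 of 7 lower (5.11% of all genes) and Msln higher, by 8.90 times (8.76% of all genes higher). Gpm6a was 29.3 times lower, Bnc1 20.5 times, Lrrn4 at least 16.4 times, Prg4 at least 11.2 times, Upk3b 8.90 times and Wt1 2.25 times. These 2 comparisons share the H-RasV12 array. Over all genes, scaling to a common median gave 738 lower and 798 higher in place of 468 and 999 against myr-Akt, and 910 and 727 in place of 546 and 936 against c-Myc, while the 6 and 1 among the members were as many. Between myr-Akt and c-Myc 1 of 7 was at least 2-fold apart, Prg4, which was 3.98 times lower with myr-Akt (2.01% of all genes lower). The other 6 were within 1.46-fold, Msln being the farthest apart (log2 difference -0.55) and Lrrn4 the nearest (0.04), and 0 of 7 were higher beside 1.53%.

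**Figure D3:**
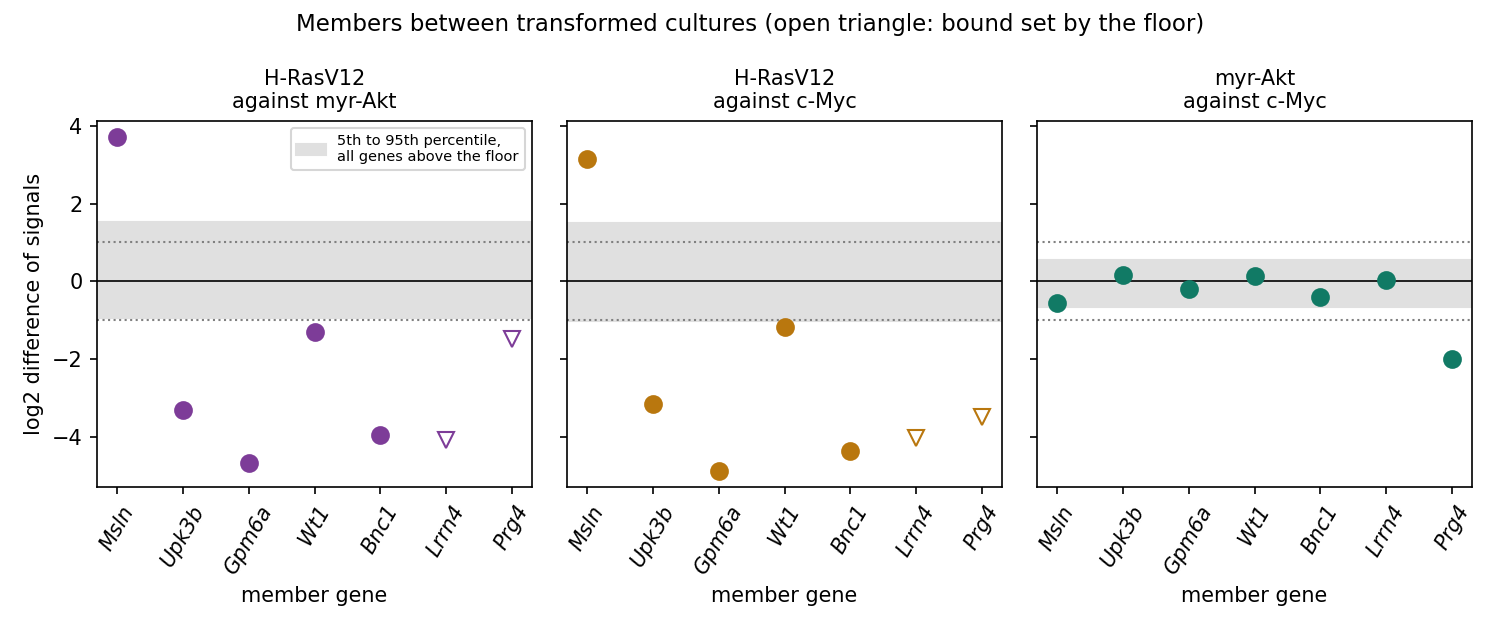
Log2 difference of signals between pairs of transformed arrays for the 7 genes, with open triangles for bounds, dotted lines at 2-fold and grey from the 5th to the 95th percentile of the 10679 genes tested. Msln lies at 3.70 and 3.15 in the 2 comparisons of H-RasV12 and the other 6 genes below -1, and between myr-Akt and c-Myc Prg4 lies at -1.99.

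How alike the 7 genes were was measured by the Euclidean distance between their 3 log2 differences from non-transformed cells. Gpm6a and Bnc1 were the closest pair, at 0.52, followed by Upk3b and Lrrn4 at 0.87. The 6 pairs among Upk3b, Gpm6a, Bnc1 and Lrrn4 lay between 0.52 and 1.63. Wt1 lay 2.45 to 3.30 from those 4, because its H-RasV12 difference was small, and Prg4 3.33 to 4.72. Msln stood at 6.69 or more from every other gene of the 7. Values at the floor enter these distances at their bound.

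By the same distance, the 3 genes most like each member were looked for among all genes tested, leaving out predicted and clone-named genes. Nearest to Msln were Dkk1, a secreted WNT inhibitor (0.72), Xaf1 (0.78), an interferon-induced gene, and Col8a1 (0.84), a collagen chain, all 3 of them at the floor with myr-Akt and c-Myc. Nearest to Upk3b were Fam110c (0.72), the tight junction gene Cldn15 (0.73) and the semaphorin Sema3d (0.74). Cldn15 had signals of 840.4 on the non-transformed array, 117.7 with H-RasV12, 770 with myr-Akt and 704.3 on the array labelled c-Myc, again low on 1 array. Ypel2 and Sema3d were each among the 3 nearest to Gpm6a (1.23 and 1.35) and to Bnc1 (0.76 and 0.94). The third nearest were the basement membrane gene Nid2 for Gpm6a (1.39) and the protein kinase A inhibitor Pkia for Bnc1 (1.04). For Lrrn4 they were Nid2 (1.15), the glypican Gpc3 (1.17) and Ypel2 (1.26), so Gpm6a and Lrrn4 had no neighbour nearer than 1.15 among genes outside the 7.

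The neighbours of Wt1 were much nearer, at 0.05 for Mpp6, 0.06 for Rb1 and 0.11 for the glycolysis regulator Pfkfb3. Prg4 was nearest to the vasopressin receptor Avpr1a (0.41), the potassium channel Kcnk6 (0.79) and the intermediate filament gene Prph (0.88). Avpr1a had signals of 199.7, 2.8, 286.1 and 945.7, with the H-RasV12 value under the floor, as for Prg4. A small distance says only that the 4 signals had a like pattern.

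A list of 28 other genes known from mesothelium or mesothelioma was then set beside the 7. It too was drawn up with earlier results of these arrays known. All 28 had a probe set and 25 passed the floor on 1 array or more. With H-RasV12 11 of 25 passed 2-fold lower and 2 higher (median log2 difference -0.77), with myr-Akt 11 lower and 2 higher (-0.74), and with c-Myc 6 lower and 1 higher (-0.26). Medians over all genes were 0.00, -0.02 and 0. The share of lower genes with H-RasV12 can be read beside 6.27% of all genes, and with myr-Akt and c-Myc beside 12.7% and 11.3%.

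Within that list some genes were low on the H-RasV12 array and others on the myr-Akt and c-Myc arrays, as Lrrn4 and Msln were. Rspo1, a secreted WNT amplifier, had signals of 3676 on the non-transformed array, 79.8 with H-RasV12, 1101 with myr-Akt and 3428 on the array labelled c-Myc. It was at least 36.8 times lower with H-RasV12 and 3.34 times lower with myr-Akt. Folr1, the folate receptor, was 13.3 times lower with H-RasV12, 3.91 times with myr-Akt and 1.01 times with c-Myc. Both were low on 2 arrays, lowest with H-RasV12. In the other direction, Thbd, the anticoagulant receptor thrombomodulin, had signals of 2852, 2233, 186.6 and 207.3. It was 1.28 times lower with H-RasV12, 15.3 times with myr-Akt and 13.8 times with c-Myc, as Msln was lowest on those 2 arrays.

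Krt18, a simple-epithelial keratin, was 2.91 times higher with H-RasV12 and 11.5 and 10.9 times lower with myr-Akt and c-Myc. Clu, which encodes the secreted chaperone clusterin, had log2 differences of 0.91, -3.35 and -2.68. Its next brightest probe set gave 0.72, -4.01 and -2.96, the same signs in each comparison.

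The remaining genes of the list named here were chosen after their values were seen. Muc16, the mucin partner of mesothelin, was low on all 3 transformed arrays, at least 4.57 times with H-RasV12, 4.04 times with myr-Akt and 4.38 times with c-Myc. It read 457.4 on the non-transformed array, 27.4 with H-RasV12, 113.2 with myr-Akt and 104.4 on the array labelled c-Myc. All 3 transformed values were thus under or just above the floor, and the sizes of the 3 falls cannot be ranked. Upk1b, another uroplakin, had log2 differences of -1.97, -0.81 and -0.74, and its next brightest probe set -2.02, -0.86 and -0.65. Podxl, which encodes the surface sialomucin podocalyxin, was 4.41 times lower with H-RasV12 and 1.77 and 1.43 times higher with myr-Akt and c-Myc. Its next brightest probe set lay near the floor, which bounds its difference at -0.17 with H-RasV12. Ildr2 was 2.70 times lower with H-RasV12 and Cldn15 7.14 times, both within 2-fold on the other 2 arrays. Ezr was 2.11 times lower with H-RasV12 and also within 2-fold on those 2, but its next brightest probe set gave -0.26 with H-RasV12. Krt8, the partner of Krt18, was 5.73 times higher with H-RasV12 and at least 6.01 times lower with myr-Akt and with c-Myc. The other keratins of the list did not share that pattern. Krt7 was 3.20 times lower with H-RasV12, 3.64 times lower with myr-Akt and 1.03 times lower with c-Myc. Krt19 was within 2-fold in all 3 comparisons.

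The transcription factors of the list differed among themselves. Gata4 and Gata6, factors of mesoderm and endoderm, were within 2-fold in all 3 comparisons, with log2 differences from -0.54 to 0.55. Tbx18, a T-box factor of the epicardium, was 2.88 times higher with myr-Akt, and its next brightest probe set was higher there by 2.08 on the log2 scale and by 1.24 with c-Myc, where the brightest gave 0.74. Tcf21, a factor of organ mesenchyme, was at least 3.93 times lower with H-RasV12 and 2.94 times lower with myr-Akt. Aldh1a2, which makes retinoic acid, was under the floor on 3 arrays and read 967.5 with myr-Akt, at least 9.67 times higher there. The water channel gene Aqp1 was at least 5.47 times higher with c-Myc. Calb2, Dmkn and Sbspon were under the floor on all 4 arrays.

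**Figure D4:**
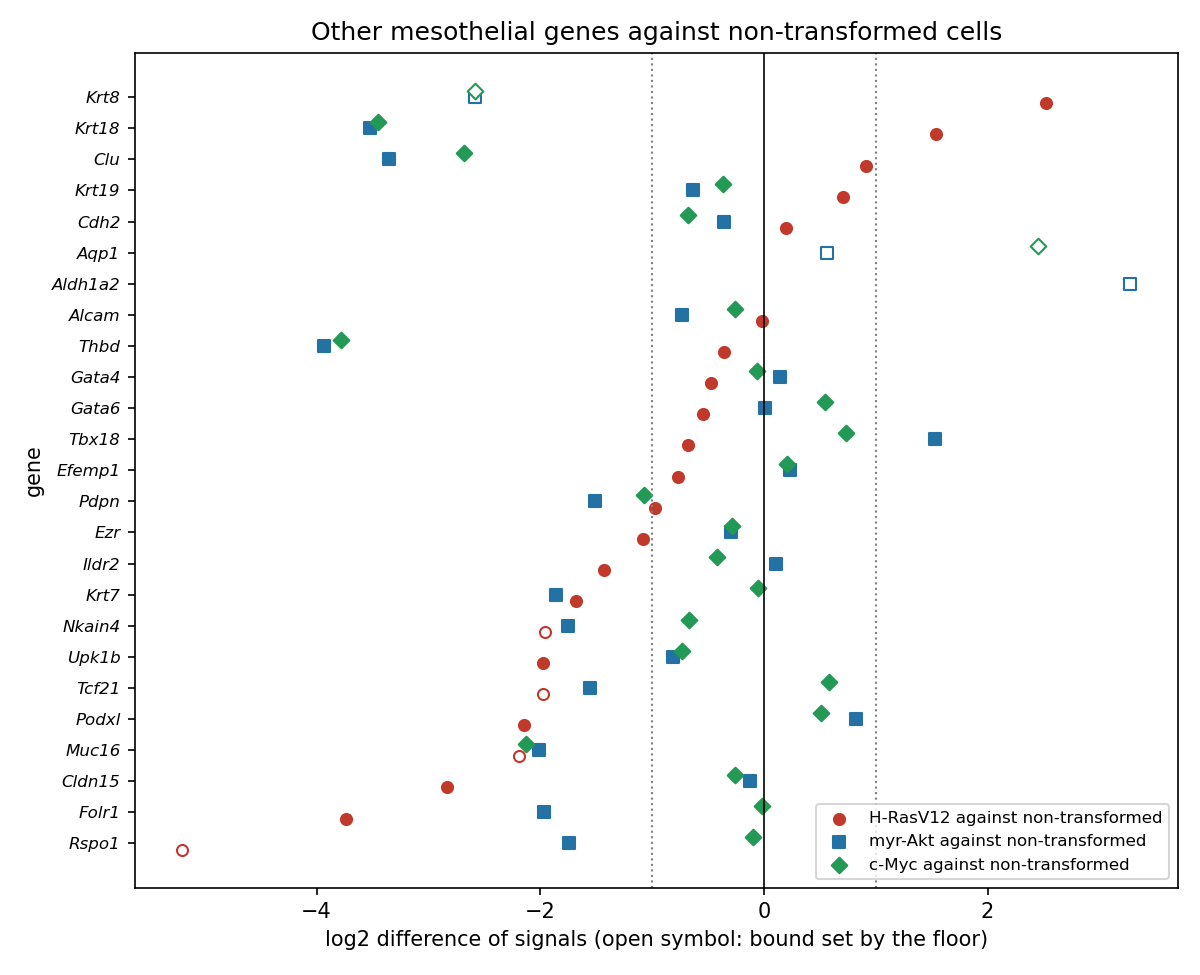
Log2 difference from non-transformed cells for the 25 other mesothelial genes above the floor on at least 1 array, in the order of their H-RasV12 difference, with open symbols for bounds, dotted lines at 2-fold and no symbol where both arrays were at the floor. Krt8, Krt18, Clu and Thbd lie far left with myr-Akt and c-Myc only. Cldn15, Podxl, Ildr2, Upk1b and Ezr pass 2-fold lower with H-RasV12 only, whereas Rspo1 and Folr1 also pass with myr-Akt.

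Of 11 genes reported as WT1 targets, 10 had a probe set named here and 7 passed the floor somewhere. With H-RasV12, where Wt1 was 2.24 times lower, 1 was at least 2-fold lower (Podxl) and 1 higher (Cdh1, which encodes E-cadherin, 2.27 times), with a median of 0.00. With myr-Akt 2 were lower (Snai1 and the RAS pathway inhibitor Spry1, at 2.05 times, the latter named after its value was seen) and 1 higher (Aldh1a2, given above, median -0.31), and with c-Myc 2 lower and 0 higher (-0.31). Over all genes 6.27%, 12.7% and 11.3% were lower with H-RasV12, myr-Akt and c-Myc, and 2.08%, 4.9% and 4.42% higher. Snai1, a repressor of E-cadherin, was at least 2.29 times lower with myr-Akt and 2.18 times with c-Myc. Wnt4, a secreted ligand, was 6.86 times lower with c-Myc and 1.95 times lower with myr-Akt, just short of 2-fold. The next brightest probe set of Wnt4 gave -1.65 with myr-Akt and -2.12 with c-Myc. With the mean over probe sets, 3 of the list were lower with myr-Akt. Snai1 read 94.1 with myr-Akt and 105 on the array labelled c-Myc, under and near the floor. Whether WT1 had a part in the levels of these genes was not tested. With the floor at 10% of the trimmed mean, 4 of this list were lower with myr-Akt and 4 with c-Myc, and with it at 40% 1 and 1. At 40% Cdh1 no longer passed with H-RasV12.

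Close relatives of the 7 genes were mostly not seen. Of 9 with a probe set named here, Upk3a, Upk3bl, Lrrn1, Lrrn2, Lrrn3 and Vtn were under the floor on all 4 arrays. Bnc2, the relative of Bnc1, had signals of 479.9 on the non-transformed array, 968.1 with H-RasV12, 1806 with myr-Akt and 1985 on the array labelled c-Myc. It was 2.02, 3.76 and 4.14 times higher, so on the H-RasV12 array it was higher while Bnc1 was lower. Its next brightest probe set was at or near the floor, and with the mean over probe sets Bnc2 did not pass 2-fold. Gpm6b, the relative of Gpm6a, read 140, 258.1, 28.1 and 40, with a log2 difference of 0.88 with H-RasV12. Egr1, whose zinc fingers resemble those of WT1, was within 1.25-fold in all 3 comparisons. Counts for this list were 1 higher (Bnc2) and 0 lower of 3 above the floor in each comparison, with medians of 0.88, 0.08 and 0.32. Shares of all genes were 2.08%, 4.9% and 4.42% higher and 6.27%, 12.7% and 11.3% lower.

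Markers of other cells were read on the same arrays, and their part in the values of the 7 genes was not tested. Of 17 hepatoblast and hepatocyte genes, 15 had a probe set named here. On the non-transformed array 5 of them were above the floor, on the H-RasV12 array 11, with myr-Akt 4 and with c-Myc 5, and their summed signals were 7552, 11325, 5467 and 7578. The 5 above it in non-transformed cells were Gpc3 (3576), Foxa2 (2821), Apoa1 (638.2), Apoa2 (171.7) and Dlk1 (116.7). Alb, Afp, Ttr and Hnf4a were among those under the floor there, with signals of 3.7, 13, 11.1 and 5.3. Alb, Hnf4a, Foxa2 and Apoa2 were named after their values were seen. With H-RasV12 6 of 11 measured passed 2-fold higher, beside 2.08% of all genes, and 1 lower, beside 6.27% (median 1.17). The higher ones were led by Apoa1 (6.74 times) and Afp (at least 5.68 times). Gpc3 was 11.5 times lower there. With the floor at 40% the count of higher genes was 3. With myr-Akt 1 was lower, beside 12.7% of all genes, and 0 higher, beside 4.9% (median 0). With c-Myc 1 was lower, beside 11.3%, and 1 higher, beside 4.42% (median 0), the last being Dlk1 at 16.3 times. Members at the floor on 1 array could move 1 way only, so these counts follow in part from which genes were measured.

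Biliary and progenitor markers had 5 of 7 above the floor on at least 1 array, with 1 lower and 2 higher with H-RasV12 (median 0.71), 2 and 1 with myr-Akt (-0.64) and 1 and 0 with c-Myc (-0.16). Of all genes, 6.27% were lower and 2.08% higher with H-RasV12, 12.7% and 4.9% with myr-Akt and 11.3% and 4.42% with c-Myc. Sox9 was 2.01 times higher with H-RasV12 and at least 3.88 times lower on the other 2 arrays. With the mean over probe sets the count of higher genes with H-RasV12 was 1. Krt7, given above, was the gene lower with H-RasV12, by 3.20 times. The summed signals of the biliary and progenitor list were 7725 on the non-transformed array, 13678 with H-RasV12, 13805 with myr-Akt and 7587 on the array labelled c-Myc. Cd24a made up most of the sums on the 3 transformed arrays, at 8502, 11635 and 4081, and read 3212 on the non-transformed array.

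Mesothelial cells can give rise to stellate cells and fibroblasts, whose markers were read on the same arrays. Of 12 stellate and pericyte genes 8 were measured, with 1 lower with H-RasV12 (Des, 4.88 times), 4 with myr-Akt and 3 with c-Myc, 0 higher in each, and medians of -0.41, -1.38 and -0.53. The shares of all genes were 6.27%, 12.7% and 11.3% lower and 2.08%, 4.9% and 4.42% higher in the same order. Pdgfrb, a receptor of pericytes, was 1.39 times lower with H-RasV12 and at least 7.70 times lower on each of the other 2 arrays. Rgs5 was 1.75 times lower with H-RasV12 and at least 6.23 times lower on each of the other 2. Mcam was 1.92, 3.80 and 1.55 times lower with H-RasV12, myr-Akt and c-Myc. The summed signals were 40222, 30881, 21432 and 28297 in the order non-transformed, H-RasV12, myr-Akt and c-Myc. Acta2, smooth muscle actin, made up most of each sum, at 33456, 26471, 19539 and 25390. These signals give log2 differences of -0.34, -0.78 and -0.40. The next brightest probe set of Acta2, which was much dimmer (751.4 on the non-transformed array), gave -1.99, -2.81 and -1.40. Des, Pdgfrb and Rgs5 had further probe sets that were at or near the floor. With the floor at 10% the count with H-RasV12 was 2.

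Of 20 fibroblast and mesenchymal genes 19 were measured. With H-RasV12 5 were lower and 0 higher (median -0.29), with myr-Akt 11 lower and 1 higher (-1.19) and with c-Myc 9 lower and 0 higher (-0.99), and summed signals were 170606, 116710, 88414 and 83123. The counts can be read beside 6.27%, 12.7% and 11.3% of all genes lower and 2.08%, 4.9% and 4.42% higher. Dcn, which encodes decorin, had signals of 10469, 172.2, 9524 and 7765, low on the H-RasV12 array alone, as the 4 mesothelial genes were, while its next brightest probe set was near the floor. S100a4 was 12.8, 16.0 and 8.31 times lower with H-RasV12, myr-Akt and c-Myc. Prrx1 was 1.58 times higher with H-RasV12, and 8.35 and at least 19.3 times lower with myr-Akt and c-Myc. Mmp2 was 2.18, 14.6 and 9.62 times lower with H-RasV12, myr-Akt and c-Myc. Col1a2 was 1.28, 1.78 and 7.69 times lower in the same order. The next brightest probe set of Col1a2 gave log2 differences of -0.74, -1.20 and -3.25.

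Most endothelial and blood cell genes were under the floor. Of 10 endothelial genes, Eng alone passed the floor (155.1 on the non-transformed array and 123.7 with H-RasV12), and 0 were called in any comparison, with that gene's differences at -0.33, -0.63 and -0.63. Of 10 blood and macrophage genes with a probe set, 3 were measured, and Cd14 was 2.53 times higher with H-RasV12. That was the list's 1 call, beside 2.08% of all genes higher with H-RasV12, and the list's medians were 0.54, -0.15 and -0.29. Ptprc, Hba-a1, Pecam1 and Cdh5 were under the floor on all 4 arrays.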

How the data were processed

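RNA of 4 cultures was hybridised to 1 single-colour Affymetrix mouse array each, and groups were taken from the labels. The authors deposited an intensity for each probe set, on a linear scale. MAS5 produced it, per the submitters' processing notes. Its version was not given in the sources used here. Each array had been scaled, since the trimmed mean (2% at each end) was 500.003 on all 4. From these intensities, log2 signals were computed after equalising the trimmed mean and raising any signal under 20% of it to that floor. Of 45101 probe sets, 64 were controls, 34945 had 1 gene symbol, 932 several and 9160 none in the platform annotation. Only the single-symbol kind names genes here, and genes without a single-symbol probe set were not analysed here. A gene is represented by its brightest probe set on average.

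No replicates exist, so no test was made. Differences were counted at 2-fold over the genes that pass the floor on any array. The counting step was checked on simulated data, with changes larger than 2-fold planted in genes well above the floor. That check does not cover values at the floor or near 2-fold. The members and gene lists were chosen with earlier results of these data known. Genes were named by rule: the 7 members, per list up to 5 genes with the largest difference of 2-fold or more, and per member the 3 nearest genes. Other names are said to be chosen after their values were seen or are given as examples of a count or of a summed signal. Alternatives were floors at 10% and 40%, a pseudocount of 100, quantile normalization, scaling to a common median and the mean over probe sets. Promoter sequences and the outer bounds of Lrrn4 came from RefSeq (GRCm38.p6), in which the 7 members were also looked up. No signal or difference rests on RefSeq, and the value table names no genome build. Analyses used Python 3.11.15, numpy 2.4.6, pandas 2.3.3, scipy 1.17.1 and matplotlib 3.10.9.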

Additional observations from a re-analysis of the deposited data

How the results depend on the processing

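Of 72 recomputed counts of members, 71 stayed within 1.5 times the count given, and of 126 recomputed member differences 119 kept their side of 2-fold and moved by less than 1.5 times. The exceptions were the 3 members higher with c-Myc under median scaling, where Gpm6a was at 1.21 and Bnc1 at 1.09, and the floor-bound values with H-RasV12: Lrrn4 at -3.41 with the floor at 40% and -3.61 with a pseudocount, and Prg4 at -1.87 with the floor at 10%, 0 with it at 40% and -1.15 with a pseudocount. No called member changed sign under any alternative. Of 216 recomputed list counts 17 moved. With the floor at 10%, WT1 targets lower were 4 with myr-Akt and 4 with c-Myc, stellate genes lower with H-RasV12 were 2, and relatives lower were 1 with myr-Akt and 1 with c-Myc. With the floor at 40%, WT1 targets were 0 higher with H-RasV12 and 1 lower with myr-Akt and with c-Myc, hepatocyte genes higher with H-RasV12 were 3, and biliary genes lower were 1 with myr-Akt and 0 with c-Myc. With quantile normalization WT1 targets lower were 1 with myr-Akt and with c-Myc. With the mean over probe sets, relatives higher were 0 in all 3 comparisons and biliary genes higher with H-RasV12 were 1. Counts over all genes moved by over 1.5 times with the mean over probe sets (436 lower with H-RasV12, 341 higher with myr-Akt, 293 higher with c-Myc, 129 lower and 102 higher for myr-Akt against c-Myc), with a pseudocount (136 higher with H-RasV12, 298 higher with c-Myc, 133 lower for myr-Akt against c-Myc), with the floor at 40% (140 lower and 106 higher for myr-Akt against c-Myc) and with median scaling, as given above. Signals near the floor limit Prg4 and Lrrn4 most. No array could be left out, because each group holds 1. No paired analysis was possible because each group holds 1 array and no test was made.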
